A study of Homo sapiens with 6 samples.

Results

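The transforming growth factor beta (TGF-β) and bone morphogenetic protein (BMP) pathway was examined at the RNA level in LNCaP cells and in their enzalutamide-resistant derivative through 10 genes, chosen by symbol from the 35554 genes of the count table. The genes were the receptors TGFBR1, TGFBR2, TGFBR3 and BMPR1B, the inhibitory SMADs SMAD6 and SMAD7, and the target genes ID1, ID2, ID3 and ID4. LNCaP is an androgen-sensitive human line that derives from metastatic prostate carcinoma, and enzalutamide is a drug that blocks the androgen receptor. The samples were 3 flasks of parental LNCaP, which had received no selection, and 3 flasks of the resistant line, called LNCaP-enzaR here. According to the study's methods, LNCaP-enzaR was selected from its parent under continuous enzalutamide and then held at a lower concentration of the drug. The sources used here do not say if cells were still on the drug when RNA was taken. Each line has 1 culture history, so that selection, drug exposure and growth state cannot be told apart, and p-values measure the spread between flasks of these lines.

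In this pathway, dimeric ligands bring together type II and type I receptor kinases. TGF-β signals mainly through the type II receptor TGFBR2 and the type I receptor TGFBR1, with TGFBR3 (betaglycan) as a co-receptor that presents ligand, and activates SMAD2 and SMAD3. BMPs signal through type I receptors such as BMPR1A, BMPR1B and ACVR1 and activate SMAD1, SMAD5 and SMAD9. Both branches share SMAD4, and both are restrained by SMAD6 and SMAD7, which are themselves induced by the pathway. The ID genes are classical BMP targets that encode helix-loop-helix proteins without a DNA-binding region, which bind E proteins such as TCF3 and keep them off DNA. TGF-β restrains the growth of normal prostate epithelium.

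Libraries held 77759122 to 98616465 counts. LNCaP-enzaR replicate 1 stood apart from the other libraries of its line, with a chi-square per degree of freedom over genes of 39.6 and 31.6 against replicates 2 and 3, compared with 7.39 between those and 5.80 to 9.66 among the parental libraries. The LNCaP luminal marker list was expressed in every library, with a summed level of 4772 to 4886 CPM (counts relative to library size, scaled by the trimmed mean of M-values) in parental cells and 4308 to 4458 CPM in LNCaP-enzaR. The 8 stromal markers found in the table, whose cells are rich in TGF-β receptors, summed to 16.5 to 19.7 CPM in parental cells and 16.8 to 17.7 CPM in LNCaP-enzaR, with THY1 at 3 counts or fewer throughout. These similar sums held opposite changes, since of 5 stromal markers tested ACTA2 (4.35-fold), LUM (3.43-fold) and PDGFRB (2.69-fold) rose and COL1A1 fell 3.11-fold, and the part of stromal genes in the results below was not tested. The 5 basal markers summed to less than 1.88 CPM in each library, with KRT5 and TP63 at 3 counts or fewer. Of the 2 tested, KRT14 fell 2.27-fold and NGFR rose, from 3, 1 and 13 counts to 85, 63 and 93. The 6 endothelial and leukocyte markers summed to 5.60 to 6.15 CPM and 3.96 to 4.46 CPM, with CDH5 and CD3E at 3 counts or fewer. VWF made up nearly all of these sums, with means of 5.74 CPM in parental cells and 4.15 CPM in LNCaP-enzaR. Transcripts of the mitochondrial genome made up 6.72% to 7.06% of the counts in parental cells and 14.8% to 15.5% in LNCaP-enzaR. Without them, the same number of the 10 genes, 6, passed the threshold.

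LNCaP-enzaR cells had less RNA of the BMP receptor BMPR1B, of the inhibitory SMAD6 and of each of the 4 ID genes. BMPR1B fell by the widest margin among the 10 genes, 17.1-fold, followed by ID4 at 7.08-fold, whereas ID1, ID3, ID2 and SMAD6 fell 1.72-fold to 2.05-fold. None of the 10 rose past the threshold, set at a fold of 1.5 or more together with an adjusted p of 0.05 or less (edgeR quasi-likelihood test, Benjamini-Hochberg adjusted over 19711 genes). The TGF-β receptors TGFBR1, TGFBR2 and TGFBR3 and the inhibitory SMAD7 fell short of it. All 10 genes passed the filter on low counts. Thus 6 of 10 were past the threshold, against 42.7% of the genes tested, and 6 of 10 were lower, against 19.5% lower and 23.3% higher among the genes tested. The median log2 fold change was −0.81 for the 10 genes and 0.01 for the genes tested. The lines did not overlap for 9 of the 10, against 70.6% of the genes tested. In bulk RNA, fewer expressing cells and less RNA per cell cannot be told apart.

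**Figure D1:**
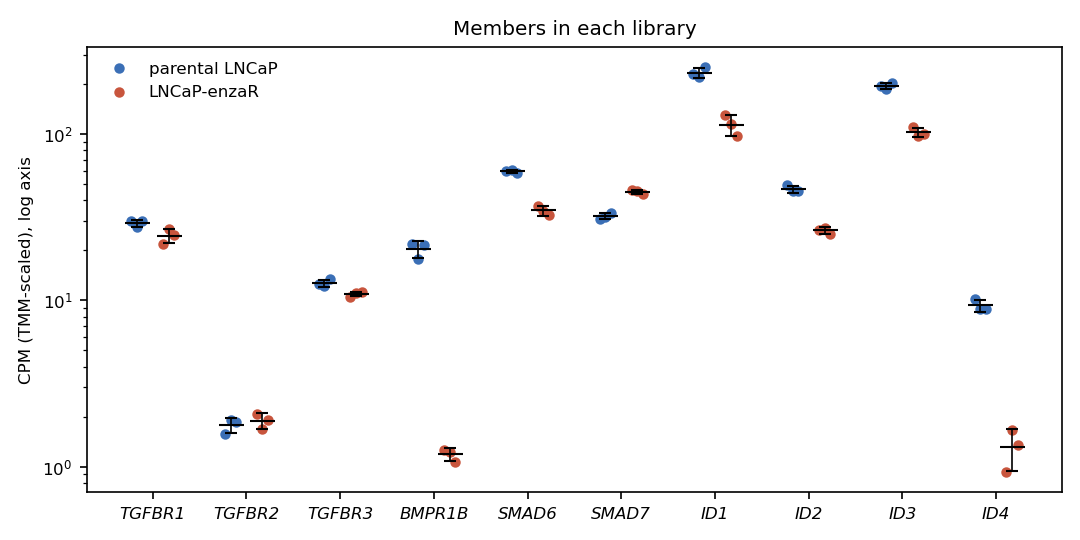
Expression of the 10 genes in each library as CPM on a log axis. Points are libraries (blue, parental LNCaP; red, LNCaP-enzaR; n = 3 each), and black marks are the mean ± SD. BMPR1B and ID4 show the widest separation between the lines, and TGFBR2 is the gene whose points overlap.

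BMPR1B (ENSG00000138696.11, chromosome 4, 94757955 to 95158448, GRCh38), a type I receptor kinase for BMPs and growth differentiation factors, stood at 21.9, 17.7 and 21.45 CPM in the parental libraries. In the LNCaP-enzaR libraries it stood at 1.26, 1.23 and 1.07 CPM, which corresponds to 109, 109 and 106 counts. Every LNCaP-enzaR library was thus far below every parental library. The log2 fold change was −4.10 (SE 0.121, 95% CI −4.36 to −3.84, edgeR adjusted p = 1.57e-12), or 14.3-fold to 20.5-fold lower. Per kilobase of exon, BMPR1B went from 3.10 ± 0.354 to 0.181 ± 0.016 CPM (SD, n = 3 each). Its share of the summed per-length level of the 4 receptors went from 34.3% to 38% in parental libraries to 3.37% to 4.30% in LNCaP-enzaR.

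The receptors of the TGF-β branch showed small differences or none beyond the replicate spread. TGFBR1 (ENSG00000106799.13, chromosome 9, 99104038 to 99154192), the type I receptor kinase, stood at 29.97, 27.6 and 30.2 CPM in parental cells and 21.96, 26.9 and 24.7 CPM in LNCaP-enzaR. Each LNCaP-enzaR library was below each parental library, and the log2 fold change was −0.26 (SE 0.080; edgeR, adjusted p = 0.0116), 1.19-fold lower and short of the fold limit. TGFBR3 (ENSG00000069702.11, chromosome 1, 91680343 to 91906335) stood at 12.6, 12.2 and 13.4 CPM against 10.5, 11.04 and 11.2 CPM. These values also did not overlap, and the fitted log2 change, −0.22 (SE 0.079, edgeR adjusted p = 0.025), was 1.16-fold lower. With upper-quartile scaling, which shifted log2 fold changes upward by 0.10 (median over the genes tested), the adjusted p was 0.103 for TGFBR1 and 0.207 for TGFBR3.

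TGFBR2 (ENSG00000163513.19, chromosome 3, 30606601 to 30694142), the type II receptor that binds TGF-β, was the least expressed of the 10 genes in parental cells, at 1.57, 1.91 and 1.85 CPM. In LNCaP-enzaR it stood at 2.09, 1.68 and 1.92 CPM, and the lines overlapped. The log2 fold change was 0.09 (SE 0.167, 95% CI −0.27 to 0.45, edgeR adjusted p = 0.644), so that values between 0.832-fold and 1.37-fold of the parental level lie within the interval. Per kilobase of exon, TGFBR1 was 14.3 ± 2.03 times as high as TGFBR2 in parental cells and 11.3 ± 2.37 times in LNCaP-enzaR (SD, n = 3 each), and the ranges of this ratio overlapped.

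The inhibitory SMADs differed in opposite directions between the lines, SMAD6 past the threshold and SMAD7 under its fold limit. A promoter window of each is shown because these windows differ in the SMAD motifs they hold. They are RefSeq windows (GRCh38.p14) on the strand of the gene, 250 bases before to 50 bases after a RefSeq start site, namely the one nearest the 5′ end of the gene in the count table where RefSeq gives several. Capitals mark the 6 motifs searched on both strands, namely the palindromic SMAD element GTCTAGAC, the SMAD box CAGAC, the GC-rich SMAD element GGCGCC, the E-box CAGCTG, the CCAAT box ATTGG and the TATA box TATAA, of which no matches to different motifs overlapped in these windows.
SMAD6 chr15:66701986-66702285, plus strand: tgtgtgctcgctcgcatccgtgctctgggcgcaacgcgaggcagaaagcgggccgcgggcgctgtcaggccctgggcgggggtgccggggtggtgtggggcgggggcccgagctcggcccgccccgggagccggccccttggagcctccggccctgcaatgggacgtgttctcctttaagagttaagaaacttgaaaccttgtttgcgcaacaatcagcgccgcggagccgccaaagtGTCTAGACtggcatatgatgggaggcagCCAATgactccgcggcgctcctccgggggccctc
SMAD7 chr18:48950916-48951215, minus strand: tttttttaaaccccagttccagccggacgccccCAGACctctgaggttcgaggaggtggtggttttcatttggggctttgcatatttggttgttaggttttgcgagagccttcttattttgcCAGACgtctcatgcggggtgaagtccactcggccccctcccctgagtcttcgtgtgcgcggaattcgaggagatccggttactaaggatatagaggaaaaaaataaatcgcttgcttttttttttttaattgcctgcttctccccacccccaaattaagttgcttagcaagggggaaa

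SMAD6 held GTCTAGAC, 12 bases before the start site, an element found in 0.202% of 35116 promoter windows of the same length. The SMAD7 window shown held no GTCTAGAC and 2 matches to CAGAC, which is found in 45.3% of the windows. RefSeq gives 1 window for SMAD6 and 3 for SMAD7. Matches in the other SMAD7 windows are not given here, so that the difference holds for the windows shown and not for the whole promoters. Such matches describe the letters of the windows shown alone and do not show where a factor binds.

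SMAD6 (ENSG00000137834.15, chromosome 15, 66702236 to 66782849), which acts mainly on the BMP branch, stood at 60.2, 61.2 and 58.5 CPM in parental cells and 37.2, 34.7 and 32.4 CPM in LNCaP-enzaR. The lines were well separated, with a log2 fold change of −0.79 (SE 0.066, 95% CI −0.93 to −0.65, edgeR adjusted p = 8.63e-08). SMAD7 (ENSG00000101665.10, chromosome 18, 48919853 to 48950965), which restrains both branches, stood at 31.0, 31.9 and 33.6 CPM against 46.0, 45.7 and 43.8 CPM. Every LNCaP-enzaR library was above every parental library, and the log2 difference, 0.49 (SE 0.063, 95% CI 0.36 to 0.62, edgeR adjusted p = 7.77e-06), was 1.41-fold (1.28 to 1.54). With upper-quartile scaling the log2 fold change of SMAD7 was 0.59 and past the fold limit.

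Per kilobase of exon, the sum of both inhibitory SMADs overlapped between the lines, at 15.2 ± 0.240 CPM in parental cells and 15.5 ± 0.577 CPM in LNCaP-enzaR (SD, n = 3 each). Its make-up did not overlap. SMAD6 was 0.896, 0.883 and 0.803 times SMAD7 in the parental libraries and 0.373, 0.350 and 0.342 times SMAD7 in the LNCaP-enzaR libraries.

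**Figure D2:**
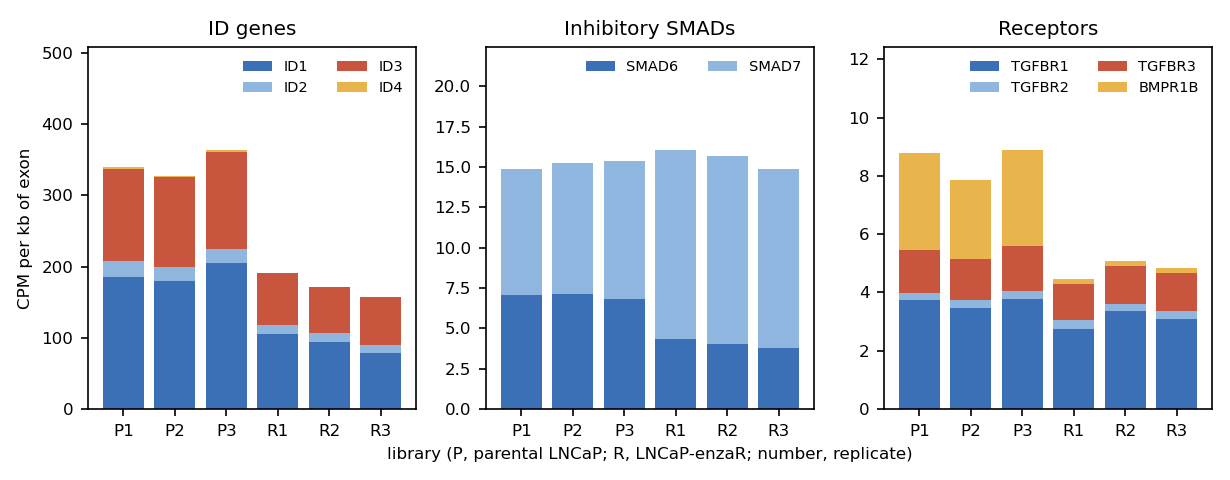
Length-scaled expression (CPM per kilobase of exon) stacked by gene for the ID genes, the inhibitory SMADs and the 4 receptors, 1 bar per library. The ID and receptor bars are lower in the 3 LNCaP-enzaR libraries, the inhibitory SMAD bars have like heights with a smaller SMAD6 part, and the BMPR1B part nearly disappears.

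All 4 ID genes fell. Their promoters are shown because these genes went the same way, and capitals mark the same motifs as above. The RefSeq start of ID2 lies 3211 bases inside the gene as the count table bounds it.
ID1 chr20:31605039-31605338, plus strand: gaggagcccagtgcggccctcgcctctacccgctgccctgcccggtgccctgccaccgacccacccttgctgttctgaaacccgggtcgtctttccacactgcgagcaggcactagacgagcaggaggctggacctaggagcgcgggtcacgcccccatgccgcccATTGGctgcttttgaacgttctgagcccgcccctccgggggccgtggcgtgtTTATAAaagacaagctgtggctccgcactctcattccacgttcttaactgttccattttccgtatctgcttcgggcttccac
ID2 chr2:8681806-8682105, plus strand: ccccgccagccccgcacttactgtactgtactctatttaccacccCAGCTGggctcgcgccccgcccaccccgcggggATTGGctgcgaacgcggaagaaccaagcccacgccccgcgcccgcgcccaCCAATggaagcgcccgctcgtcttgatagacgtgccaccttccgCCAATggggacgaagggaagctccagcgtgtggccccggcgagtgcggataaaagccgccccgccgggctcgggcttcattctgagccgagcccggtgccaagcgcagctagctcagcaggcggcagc
ID3 chr1:23559452-23559751, minus strand: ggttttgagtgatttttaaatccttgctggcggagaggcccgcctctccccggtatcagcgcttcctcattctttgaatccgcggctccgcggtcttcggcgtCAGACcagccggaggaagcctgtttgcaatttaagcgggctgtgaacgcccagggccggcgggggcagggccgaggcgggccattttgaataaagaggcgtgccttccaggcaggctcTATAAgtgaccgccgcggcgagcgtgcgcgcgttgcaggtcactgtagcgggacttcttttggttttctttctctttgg
ID4 chr6:19837120-19837419, plus strand: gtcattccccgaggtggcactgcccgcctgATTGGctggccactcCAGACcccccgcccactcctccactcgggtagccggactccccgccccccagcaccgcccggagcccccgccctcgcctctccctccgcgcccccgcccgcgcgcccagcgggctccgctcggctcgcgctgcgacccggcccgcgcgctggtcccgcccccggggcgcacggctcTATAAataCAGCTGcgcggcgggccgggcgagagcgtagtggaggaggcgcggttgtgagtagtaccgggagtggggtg

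None of these 4 windows held GTCTAGAC or GGCGCC, the latter found in 19.2% of all windows. CAGAC was found in ID3 and ID4. TATAA lay 29 to 32 bases before the start site in ID1, ID3 and ID4, against 20.4% of all windows with a match at any position. ATTGG was found in ID1, ID2 and ID4, against 34.6% of windows, and CAGCTG in ID2 and ID4, against 17.9%. No motif searched was present in all 4 windows, and enhancers further away were not examined.

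ID1 (ENSG00000125968.9, chromosome 20, 31605283 to 31606515) stood at 229, 221 and 253 CPM in parental cells and 130, 116 and 96.9 CPM in LNCaP-enzaR. The lowest parental library was well above the highest LNCaP-enzaR library, and the log2 fold change was −1.04 (SE 0.089, 95% CI −1.23 to −0.84, edgeR adjusted p = 1.2e-07). ID3 (ENSG00000117318.9, chromosome 1, 23557926 to 23559501) stood at 194, 188 and 202 CPM against 110.1, 97.3 and 99.9 CPM. Its log2 fold change was −0.93 (SE 0.061, 95% CI −1.06 to −0.80, edgeR adjusted p = 6.3e-09).

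ID2 (ENSG00000115738.10, chromosome 2, 8678845 to 8684461) stood at 49.4, 45.5 and 45.3 CPM in parental cells and 26.7, 27.3 and 25.0 CPM in LNCaP-enzaR, again without overlap. Its log2 fold change was −0.83 (SE 0.067, 95% CI −0.97 to −0.68, edgeR adjusted p = 5.88e-08). An antisense gene, ID2-AS1, shares 6.55% of the exonic bases of ID2, and without a known strand setting the reads of that stretch cannot be assigned. None of the other 9 genes shared exonic bases with another annotated gene.

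ID4 (ENSG00000172201.12, chromosome 6, 19837370 to 19842197), the least expressed of the family, stood at 10.2, 8.84 and 8.92 CPM in parental cells. In LNCaP-enzaR it stood at 0.927, 1.66 and 1.35 CPM (80, 147 and 134 counts), far below the parental libraries and with the widest relative spread of the 10 genes, a coefficient of variation of 28.2%. The log2 fold change was −2.82 (SE 0.164, 95% CI −3.18 to −2.47, edgeR adjusted p = 1.63e-09). It was −2.63 without LNCaP-enzaR replicate 1 and −3.02 without LNCaP-enzaR replicate 2.

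**Figure D3:**
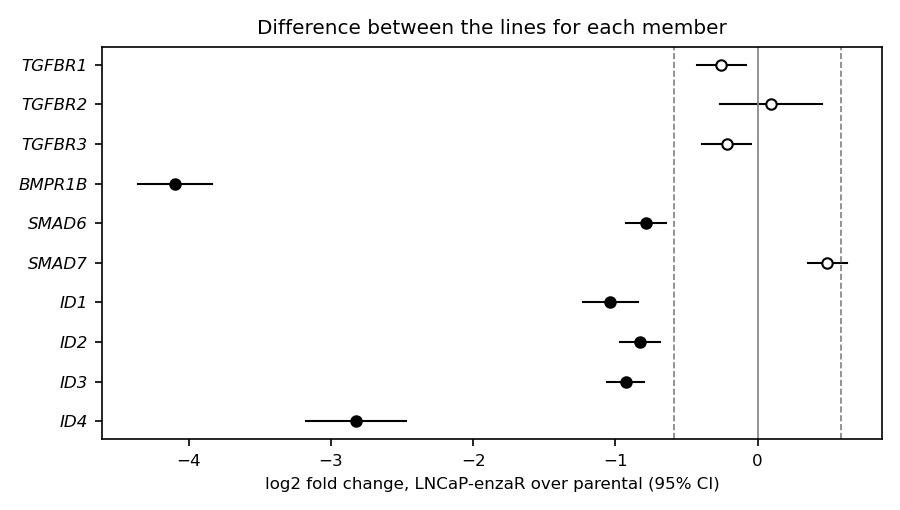
Log2 fold change of each gene, LNCaP-enzaR over parental LNCaP (edgeR), with its 95% CI. Filled points passed the threshold of adjusted p and fold, open points did not, and dashed lines mark a fold of 1.5. The 6 filled points lie to the left, with BMPR1B at −4.10 and ID4 at −2.82 apart from the others.

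Without LNCaP-enzaR replicate 1, the same count of the 10 genes passed, 6. The log2 fold changes were then −4.14 for BMPR1B, −0.83 for SMAD6, −1.13 for ID1, −0.83 for ID2 and −0.97 for ID3, and 0.48 for SMAD7, −0.18 for TGFBR1, −0.19 for TGFBR3 and 0.03 for TGFBR2, which did not pass.

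Per kilobase of exon, the summed level of the ID genes was 343.5 ± 17.9 CPM in parental cells and 173 ± 17.1 CPM in LNCaP-enzaR (SD, n = 3 each). The mix of the major forms was similar. ID1 made up 54.5% to 56.4% of the sum in parental libraries and 50.0% to 55.1% in LNCaP-enzaR, and ID3 made up 37.3% to 38.3% and 37.9% to 42.5%. The share of ID4 went from 0.635% to 0.775% down to 0.125% to 0.250%.

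The order of the genes by length-scaled level changed in its lower part. In parental cells the order was ID1, ID3, ID2, SMAD7, SMAD6, TGFBR1, BMPR1B, ID4, TGFBR3 and TGFBR2, and no neighbours in it overlapped between libraries. ID1 lay above 99.2% of the genes tested, at 190 CPM per kilobase, and TGFBR2 above 25.3%, at 0.259. In LNCaP-enzaR the order was ID1, ID3, ID2, SMAD7, SMAD6, TGFBR1, TGFBR3, ID4, TGFBR2 and BMPR1B. There the ranges of ID2 and SMAD7 overlapped, as did those of ID4 and TGFBR2. BMPR1B went from above 57.9% to above 18.9% of the genes tested, and ID1 stayed above 98.3%.

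Related genes of the pathway were counted in 11 lists that hold 132 genes. Of these, 91 passed the filter, and 62 of them (68.1%) passed the threshold, with 29 higher and 33 lower, against 42.7% of the genes tested. The counts by list below are to be read against that share, and against 23.3% higher and 19.5% lower among the genes tested. The signal-transducing SMADs (33.3% past the threshold), TGF-β, activin and nodal ligands (50%) and corepressors and ubiquitin ligases (53.3%) were closest to that share or under it.

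Of 7 receptors tested other than the 4 above, 5 fell and none rose, with a median log2 fold change of −0.82. BMPR1A, the other main BMP type I receptor, fell from 49.2 ± 3.19 to 21.2 ± 0.754 CPM (SD, n = 3 each), that is by 1.22 on the log2 scale (SE 0.069). The activin receptors ACVR2A (−0.92) and ACVR2B (−0.82), the type I receptor ACVR1 (−0.64) and the anti-Müllerian hormone receptor AMHR2 (−2.44) also fell. BMPR2, the type II receptor for BMPs, had a log2 fold change of −0.27 and ACVR1B one of −0.02, both short of the threshold. Of 4 co-receptors tested, BAMBI, a receptor-like inhibitor that lacks a kinase (−1.04), and the BMP co-receptors RGMB (−1.12) and RGMA (−2.26) fell. The TGF-β co-receptor ENG rose (1.19), and both RGMA and ENG were under 1 CPM on average in each line.

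Of 7 BMP and related ligands tested, 5 rose and none fell. BMP6 rose from 2.11 ± 0.083 to 8.67 ± 0.660 CPM (log2 fold change 2.04, SE 0.111), and BMP4 from 0.225 ± 0.064 to 2.00 ± 0.026 CPM (3.13, SE 0.246). BMP2 had 0 counts in each parental library and 34 to 52 in LNCaP-enzaR, at least 12-fold higher when the parental level is set to 3 counts per library. AMH (0.73) and BMP8A (0.59) rose less. Of 10 TGF-β, activin and nodal ligands tested, the inhibin subunit genes INHBA, INHBB (1.22) and INHBC (0.69) rose, and INHBE and GDF11 (−0.75) fell. INHBA went from 0, 6 and 2 counts to 102, 132 and 97, and INHBE from 33, 29 and 27 counts to 4, 11 and 2. TGFB1, TGFB2 and TGFB3 had at most 24 counts in any library. Among secreted antagonists, FSTL3 (2.12), CHRD (3.36) and FST (3.19), which bind activins or BMPs, rose, whereas FSTL1 (−1.99) fell, as did CHRDL1, from 20, 16 and 31 counts to 0, 5 and 0. In the parental libraries CHRD had only 24, 45 and 36 counts and FST 9, 9 and 9. Of 10 genes of TGF-β latency and activation tested, 7 rose and 2 fell, among them LTBP1 from 1.41 ± 0.114 to 16.5 ± 0.726 CPM (3.55) and LTBP3 from 73.1 ± 2.72 to 267 ± 33.1 CPM (1.87), which encode proteins that hold latent TGF-β in the matrix. THBS1, an activator of latent TGF-β, fell (−2.51), as did the protease FURIN (−0.70).

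Of the 6 signal-transducing SMADs, SMAD9, of the BMP branch, fell from 125 ± 5.04 to 36.3 ± 4.39 CPM (log2 fold change −1.78, SE 0.079). SMAD3, of the TGF-β branch, rose from 11.2 ± 0.222 to 32.2 ± 0.511 CPM (1.52, SE 0.068). SMAD1, SMAD2, SMAD4 and SMAD5 had log2 fold changes between −0.27 and −0.06 and did not pass the threshold. Of 15 corepressors, ubiquitin ligases and other regulators, 7 fell and 1 rose, which is 53.3% past the threshold against 42.7% of the genes tested. PMEPA1, a feedback inhibitor of TGF-β signaling that is also induced by androgens, fell from 219 ± 0.835 to 46.9 ± 3.34 CPM (−2.22), TGIF2 fell by 1.43 and SMURF2 by 1.20 on the log2 scale, and ZFYVE9, an anchor for SMAD2 and SMAD3, rose (0.60).

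Target genes did not move as a block. Of 10 BMP-induced genes other than the ID genes, SMAD6 and SMAD7, 6 fell and 3 rose, with a median of −1.34. ATOH8 fell from 15.9 ± 1.98 to 1.38 ± 0.262 CPM (−3.53), and SMAD9 and BAMBI, given above, belong to this list too. MSX2, a homeobox gene, rose from 2.97 ± 0.123 to 48.0 ± 2.16 CPM (4.01, SE 0.080), MSX1 rose (0.62), and DLX5, with 0 parental counts, was at least 5.52-fold higher. Of 17 TGF-β-induced genes tested, which include SMAD7, 6 rose and 7 fell, with a median of −0.23. FN1, which encodes fibronectin, fell from 337 ± 7.05 to 31.0 ± 1.01 CPM (−3.44), whereas CDKN2B, a cell cycle inhibitor chosen after its values were seen, rose from 0.879 ± 0.187 to 7.33 ± 0.775 CPM (3.06).

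**Figure D4:**
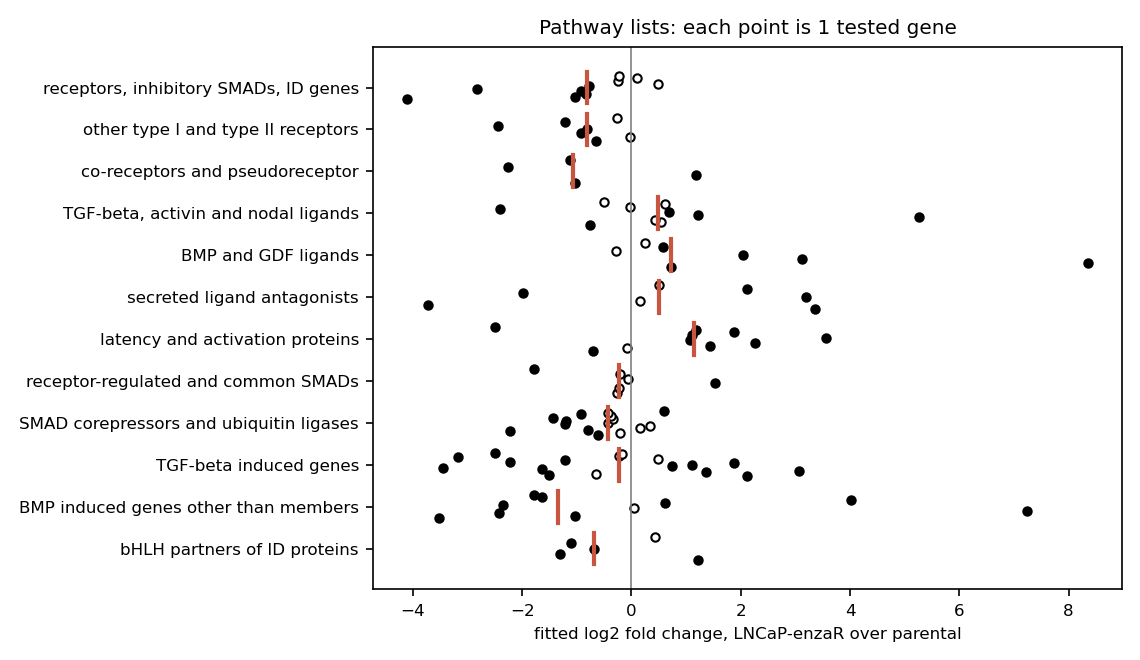
Fitted log2 fold change, LNCaP-enzaR over parental LNCaP, of each tested gene of the 11 related lists and of the 10 genes, by list. Filled points passed the threshold, open points did not, and the red bar is the list's median, which is −0.82 for the other receptors and 0.73 for the BMP and related ligands. The points furthest to the right, BMP2 and DLX5, had 0 parental counts, so that where they lie depends on the fit's prior count.

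The related gene most like each of the 10 was found as that with the smallest root-mean-square distance between log2 CPM values, centred on each gene's mean over the 6 libraries, among 90 candidates. It was TCF3 for ID1 (distance 0.085), BAMBI for ID3 (0.072) and GDF11 for both ID2 (0.058) and SMAD6 (0.041). TGFBR1 lay nearest to BMPR2 (0.046), TGFBR3 to NEDD4L (0.058), SMAD7 to ZFYVE9 (0.076) and TGFBR2 to GATA2 (0.103). For BMPR1B and ID4 the nearest genes, FN1 (0.345) and THBS1 (0.339), were further away. With 2 lines, this distance mostly reflects the size of the difference between them.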

How the data were processed

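mRNA libraries were sequenced by the authors, who trimmed reads with Cutadapt, aligned them to GRCh38 with STAR and the GENCODE annotation, and counted them per gene with featureCounts. The deposited values are raw counts per gene, not normalized. The strand setting and the treatment of reads mapping to several places are not stated. Groups and replicate numbers were taken from sample titles.

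The test was that of edgeR 4.0.16, run in R 4.3.3 (filterByExpr, 19711 genes kept, TMM scaling, robust quasi-likelihood F-test, no covariates, Benjamini-Hochberg adjustment). The limits of adjusted p and fold are those of the study's methods, which name DESeq2 (1.42.0 here, as an alternative). SE is the log2 fold change over the square root of F. Coordinates are those of the table. Exon lengths come from GENCODE v44, where 99.8% of the genes were found. 3 counts corresponded to 0.0302 to 0.0382 CPM. This limit covers counting error only.

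The 10 genes, the lists and the naming rule were chosen with earlier results of these data known. Named from each list were up to 3 genes with the smallest p past the threshold and those a small count refers to. CDKN2B was an exception, since other genes of its list, such as BHLHE40, which fell, had a smaller p. Symbols were matched in the table, where 122 of 132 listed genes were found. Alternatives were DESeq2, other scalings, filters and gene sets, fold limits, a replicate block and leaving out each library. On counts simulated from these data (19173 genes tested), the test called 44 of 47 genes lowered to 0.571-fold, 52 of 53 raised 1.75-fold and 5 unchanged genes. Few genes were changed there, about as many raised as lowered. It thus could not test the scaling for data in which 42.7% of the genes pass.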

Additional observations from a re-analysis of the deposited data

How the results depend on the processing

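Of the 10 genes, 6 passed under DESeq2, each filter and gene set, each other scaling except upper-quartile (7) and in every fit with 1 library left out. With a fold of at least 2 it was 3, namely BMPR1B, ID1 and ID4, and with no minimum fold it was 9, of which 1 was higher (SMAD7) and 8 lower. Over all genes, no minimum fold gave 13074 and a fold of at least 2 gave 5561 genes, in place of 8425. The direction of each of the 10 genes held in the 15 alternatives, and SMAD7 alone changed side, with upper-quartile scaling (0.59). The cause was not tested beyond that scaling's shift of 0.10 over all genes. Log2 fold changes ranged from −4.19 to −3.998 for BMPR1B, −3.02 to −2.63 for ID4, −1.13 to −0.93 for ID1, −0.97 to −0.83 for ID3, −0.86 to −0.73 for ID2 and −0.83 to −0.68 for SMAD6, and from 0.46 to 0.59 for SMAD7, −0.32 to −0.15 for TGFBR1, −0.25 to −0.12 for TGFBR3 and 0.00 to 0.19 for TGFBR2. Replicate numbers do not pair the libraries: across genes, libraries with a shared number deviated from their line's mean with correlations between −0.065 and −0.00041. In the fit with a replicate block, 6 of the 10 genes, 62 related genes and 8212 genes in all passed. Depth limits statements on TGFBR2, with 145 to 190 counts per library, and on ID4 in LNCaP-enzaR.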

Other observations

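The E proteins that ID proteins bind, and other helix-loop-helix factors, were also measured. Of 5 tested, TCF3, the E protein also called E2A, fell from 133 ± 3.94 to 61.5 ± 5.09 CPM (SD, n = 3 each), that is by 1.11 on the log2 scale (SE 0.066). TCF12, another E protein, fell by 0.69 on the log2 scale and HES6 by 1.32. HES1, a Notch target, rose from 11.1 ± 0.736 to 25.8 ± 1.34 CPM (1.22). TCF4 had a log2 fold change of 0.43 and did not pass the threshold. The fall of TCF3 (2.16-fold) was close in size to that of ID1 (2.05-fold). This restates the small distance between TCF3 and ID1 given above and is not a separate result.

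The nearest tested protein-coding gene on each side of the 10 genes was looked up, which gives 20 neighbours. Of these, 11 passed the threshold, 5 higher and 6 lower, against 42.7% of all genes tested, 23.3% higher and 19.5% lower, so that the count says nothing particular to these neighbours. SMAD6 has SMAD3 as a neighbour on chromosome 15, 280914 bases away, and these genes moved in opposite directions (−0.79 and 1.52 on the log2 scale). On chromosome 4, the neighbours of BMPR1B were PDLIM5 (−1.05), 89728 bases away, and RAP1GDS1 (1.00), 3102936 bases away on the other side. Of the neighbours of ID4 on chromosome 6, 1368500 and 559682 bases away, RNF144B rose (3.63) and E2F3 fell (−0.82). Neither neighbour of ID1, HM13 (−0.11) and BCL2L1 (−0.11), passed the threshold.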
